A study of Polistes metricus with 16 samples.

Results

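The 100 transcripts that take the largest share of sequencing counts in the heads of last-instar larvae of the paper wasp Polistes metricus were described in 16 single larvae. Each library's counts were divided by the library total, the shares were averaged over the 16 larvae, and the 100 transcripts with the highest mean share were taken out of 74517 in the deposited table. All 100 passed the filter on low counts, which kept 36337 transcripts. The members were thus chosen by their mean shares, so their height is a description here. The mean over all larvae also carries differences between groups and the spread among larvae, so these are not fully independent of the choice. A transcript that is very high in 1 larva can enter the list through that larva alone.

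All larvae were females of the fifth instar, sampled as single heads without any genetic or drug treatment. Field nests at Madrid, Iowa, gave 4 foundress-reared, worker-destined larvae in late spring and 4 worker-reared, queen-destined larvae in late summer of 2010. Restricted larvae (n = 4) and ad libitum larvae (n = 4) came from North Carolina nests kept in a laboratory in 2009, where protein prey was offered every 3 days or every 1 day. Season therefore went with rearing caste, and year, place and origin went with field or laboratory. The labels do not say which larvae shared a nest, so a p-value rests on how much these larvae vary. Library totals ran from 28359372 to 37626473 counts.

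Paper wasp larvae are fed by adults, and the amount and timing of that food is thought to steer a female towards the queen or the worker path. In last-instar insect larvae in general, a few secreted or structural products such as storage proteins of the fat body, cuticle proteins of the epidermis and silk of the labial glands can take up much of the messenger RNA, and their levels change as moulting hormones rise. Gene names are not paired with the identifiers in the table, and no annotation or sequence was used here. Transcripts are therefore given by identifier, without a role or a sequence, and no marker of a tissue could be read. Shares are not divided by transcript length, so the order of the list is an order of counts, not of molecules. In whole heads, fewer cells of a type and less RNA per cell cannot be told apart.

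Together the 100 members held 28.2% of all counts on average, and the first 10 held 10.8%. The values held a small core steady in share, a long range for most other members, and sets that moved together from larva to larva. PmetTSAr1.1-000002 led the list with a mean share of 2.99%, followed by PmetTSAr1.1-014844 with 1.28% and PmetTSAr1.1-000005 with 1.19%. No other member averaged above 1%, and 64 members averaged below 0.2%. At the lower edge, PmetTSAr1.1-000239 and PmetTSAr1.1-012223 were taken in with 0.0910% and 0.0905%, while the next 2 transcripts, the second of them PmetTSAr1.1-000229, stayed out with 0.0903% and 0.0889%.

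**Figure D1:**
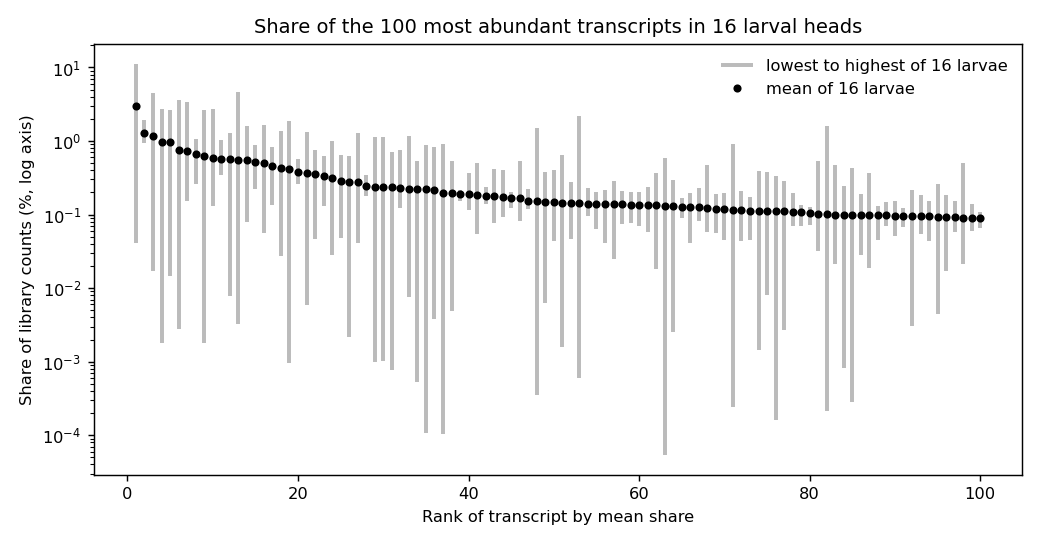
Share of library counts (percent, log axis) of each member against its rank by mean share; points are means of 16 larvae and grey lines run from the lowest to the highest larva. The mean falls from 2.99% at rank 1 to 1.28% at rank 2 and 0.0905% at rank 100. The lines of 17 members span more than 1000-fold.

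The members' summed share differed widely among larvae of every group. It was 22.4%, 26.7%, 15.4% and 25.8% in worker-reared replicates 1 to 4, and 30.9%, 34.95%, 22.5% and 45.7% in foundress-reared replicates 1 to 4. In restricted replicates 1 to 4 it was 30.8%, 34.2%, 24.6% and 17.9%, and in ad libitum replicates 1 to 4 it was 29.8%, 24.2%, 44.2% and 20.3%. Foundress-reared replicate 4 and ad libitum replicate 3 were the highest, worker-reared replicate 3 and restricted replicate 4 the lowest, and the groups of each pair overlapped. Worker-reared larvae averaged 22.6% ± 5.12 and foundress-reared larvae 33.5% ± 9.65 (SD, n = 4). Restricted larvae averaged 26.9% ± 7.17 and those fed ad libitum 29.6% ± 10.4 (SD, n = 4). Neither pair reached an adjusted p under 0.05 by a two-sided exact permutation test over 70 assignments, whose smallest possible unadjusted p is 0.0286. The worker-reared mean was lower by 10.9 percentage points than the foundress-reared mean (exact p = 0.0857, adjusted p = 0.171 over both comparisons). The ad libitum mean was 2.75 points above the restricted mean (exact p = 0.743). Beside that value, even an exact p of 0.0286 would not stay under 0.05 after adjustment. The test could thus not have called the caste difference.

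The first place in a library was not fixed. PmetTSAr1.1-000002 was first in 9 larvae, PmetTSAr1.1-014844 and PmetTSAr1.1-014869 in 2 each, and PmetTSAr1.1-014843, PmetTSAr1.1-014851 and PmetTSAr1.1-014864 in 1 each. Between 52 members (worker-reared replicate 3) and 87 members (ad libitum replicate 1) stood among the 100 most abundant transcripts of a library. Counting every larva, 283 transcripts reached the 100 most abundant of at least 1 library, of which 183 were not members. Of the members, 19 reached it in all 16 libraries, 55 in at least 12, and 3 in 4 or fewer. Those 3 were PmetTSAr1.1-014843 and PmetTSAr1.1-000063, each in foundress-reared replicate 1 alone, and PmetTSAr1.1-000068, in 3 larvae.

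By share of counts, the steady core lay within a few-fold in all larvae. PmetTSAr1.1-014844 ranged from 0.951% in worker-reared replicate 3 to 1.95% in ad libitum replicate 4, a 2.05-fold range, and its rank never fell below 9. PmetTSAr1.1-000124 had the narrowest range of all members, from 0.151% to 0.216%, or 1.43-fold. PmetTSAr1.1-000075 ranged 2.14-fold, from 0.263% in foundress-reared replicate 4 to 0.562% in restricted replicate 1. In all, 10 of the 100 members stayed within 2-fold in share. The first-ranked PmetTSAr1.1-000002 was no part of this core, with a rank between 1 and 308.

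At the other end, 52 members ranged over more than 10-fold, 32 over more than 100-fold and 17 over more than 1000-fold, with a median of 12.7-fold. PmetTSAr1.1-014848 had the widest range, 10963-fold, from 18 counts in worker-reared replicate 4 to 0.586% of counts in ad libitum replicate 3. PmetTSAr1.1-014866 ranged 8879-fold and PmetTSAr1.1-014646 8223-fold between the same larvae. No member was at 0 in any library. In 4 members, more than 50% of the summed share came from 1 larva. These were PmetTSAr1.1-000063 with 98.8%, PmetTSAr1.1-014843 with 97.3% and PmetTSAr1.1-000106 with 61.8%, all in foundress-reared replicate 1, and PmetTSAr1.1-000038 with 52.1% in foundress-reared replicate 4.

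The spread among larvae of one group was taken as the pooled standard deviation of log2 CPM, where CPM are counts divided by a library total adjusted by TMM scaling and expressed per 1e6 counts. Its median was 0.92 for the members, against 0.49 for the next 100 transcripts by mean share, 0.33 for the 800 after these and 0.45 for all 36337 tested transcripts. A standard deviation above 2 was found in 32 of the 100 members, in 6 of the next 100, in 31 of the 800 (3.88%) and in 1.35% of all tested transcripts. A standard deviation under 0.3 was found in 12 members, against 27 of the next 100. These are descriptions of 16 larvae and were not tested. A high mean over few larvae can itself come from a wide spread, so the choice by mean share favours such transcripts.

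**Figure D2:**
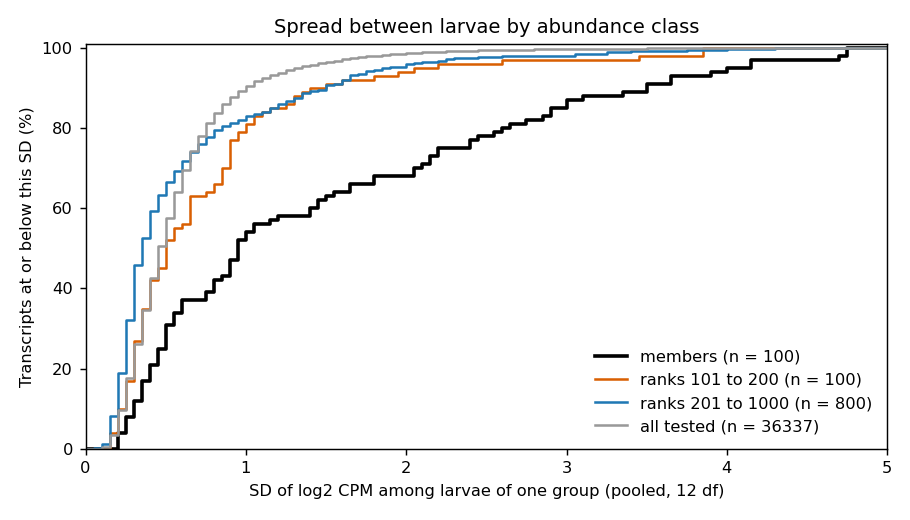
Cumulative percent of transcripts against the pooled within-group standard deviation of log2 CPM, for the 100 members, for the next 100 and the following 800 transcripts by mean share, and for all 36337 tested transcripts. The curve of the members lies to the right of the others, with medians of 0.92, 0.49, 0.33 and 0.45.

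The lowest standard deviations among members belonged to PmetTSAr1.1-012278 (0.17), PmetTSAr1.1-000181 (0.18), PmetTSAr1.1-000847 (0.19) and PmetTSAr1.1-000035 (0.20). The highest belonged to PmetTSAr1.1-014848 (4.75), PmetTSAr1.1-014646 (4.72), PmetTSAr1.1-014866 (4.69) and PmetTSAr1.1-014849 (4.13). PmetTSAr1.1-014844 and PmetTSAr1.1-000075, steady in share, had 0.45 and 0.40, against a median of 0.45 for all tested transcripts. Over all larvae PmetTSAr1.1-014844 ran from 7045 to 24710 CPM, and PmetTSAr1.1-000124 from 1445 to 3102 CPM. Group membership held a median of 25.4% of the variance of log2 CPM in the members and 28.9% in all tested transcripts. These shares are not adjusted for the number of groups, so part of them arises even where groups do not differ. For the members, as for all tested transcripts, differences between larvae of one group thus typically made up most of the variance.

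Members moved together in sets. Pearson's r was taken between log2 CPM of each of 4950 pairs of members after removal of group means, so that a difference between groups could not produce it. Of these pairs, 838 (16.9%) had r above 0.7, 341 (6.89%) had r below -0.7, and 248 (5.01%) had r above 0.9. Among the next 100 transcripts, the corresponding shares were 12.2%, 6.38% and 3.41%. The median r was 0.32 among members, 0.13 among the next 100 and 0.079 among the following 800. With library totals in place of TMM factors, the median r among members was 0.053. TMM factors ran from 0.649 in foundress-reared replicate 1 to 1.35 in worker-reared replicate 3, and such a factor shifts all members of a larva alike. The general lean towards positive r therefore depended on the scaling.

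Average-linkage grouping at r of 0.7 placed 80 members in 7 sets of at least 5, another 15 members in 6 sets of 2 to 4, and left 5 members alone. The sets were cut from the same values and carry no test. With library totals, 378 of the 598 pairs that shared such a set (63.2%) still shared one. The sets led by PmetTSAr1.1-014869, PmetTSAr1.1-014849 and PmetTSAr1.1-014851 stayed whole, and 22 of 28, 8 of 9 and 6 of 7 members stayed together in the sets led by PmetTSAr1.1-000041, PmetTSAr1.1-000002 and PmetTSAr1.1-014864. The set of PmetTSAr1.1-000075 came apart, with 5 of its 13 members together.

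**Figure D3:**
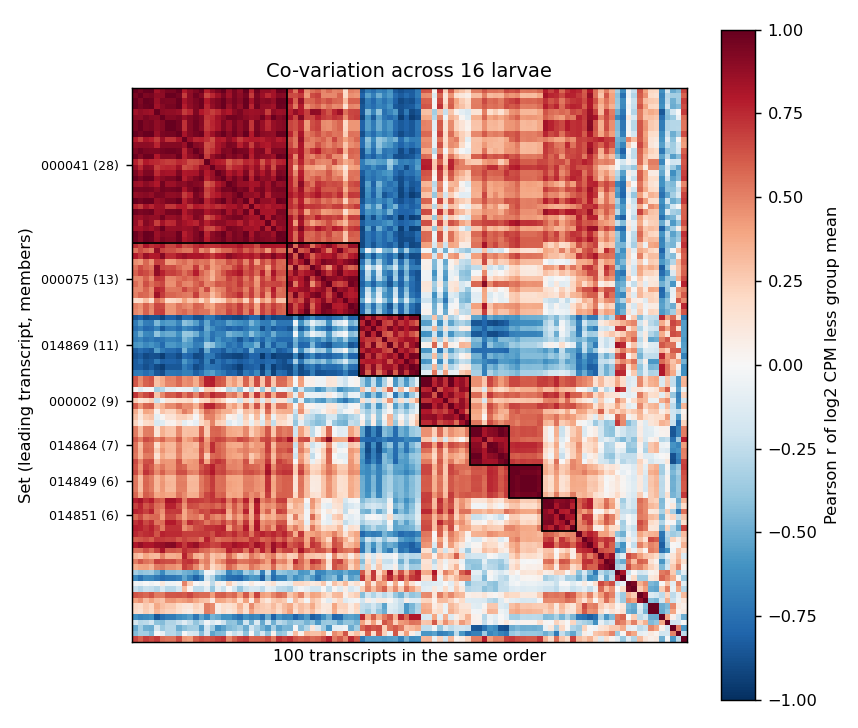
Pearson's r between all pairs of the 100 members over 16 larvae, on log2 CPM less the group mean, ordered by set, with the 7 sets of at least 5 members outlined and named by their leading transcript. The set led by PmetTSAr1.1-000041 (28 members) and the set led by PmetTSAr1.1-014869 (11 members) are opposed, with a median r of -0.74 between them.

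The set with the largest summed share was led by PmetTSAr1.1-000002 and had 9 members. It held 6.84% of counts on average, from 0.296% in worker-reared replicate 3 to 28.5% in foundress-reared replicate 4, a 96.3-fold range. PmetTSAr1.1-000002 itself took 1.54%, 1.48%, 0.0407% and 0.791% in worker-reared replicates 1 to 4 and 0.414%, 3.49%, 1.97% and 11.3% in foundress-reared replicates 1 to 4. It took 3.47%, 5.42%, 0.360% and 0.418% in restricted replicates 1 to 4 and 3.58%, 2.24%, 9.60% and 1.66% in ad libitum replicates 1 to 4. Foundress-reared replicate 4 and ad libitum replicate 3 were highest, and the groups overlapped. PmetTSAr1.1-000005 followed it closely, at a ratio of counts between 2.29 and 2.67 in every larva while both ranged over more than 100-fold. The ratio of PmetTSAr1.1-000002 to PmetTSAr1.1-014839 likewise kept between 5.92 and 8.76. By contrast, its ratio to PmetTSAr1.1-000059 ran from 1.57 to 147 and its ratio to PmetTSAr1.1-012278 from 0.357 to 162. This set thus holds both tight and loose partners, and a shared set does not mean a similar range. PmetTSAr1.1-000059 fell to 0.00281% in foundress-reared replicate 1 and reached 3.66% in foundress-reared replicate 4.

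The largest set by number was led by PmetTSAr1.1-000041 and had 28 members with a median r of 0.89 among them. Its summed share was 14.7% in foundress-reared replicate 1 and 1.27% in worker-reared replicate 3. PmetTSAr1.1-000041 took 0.0710%, 0.852%, 0.00788% and 0.610% in worker-reared replicates 1 to 4, and 1.19%, 1.04%, 0.114% and 0.385% in foundress-reared replicates 1 to 4. It took 1.27%, 1.18%, 1.06% and 0.0385% in restricted replicates 1 to 4, and 0.280%, 0.0921%, 0.815% and 0.0973% in ad libitum replicates 1 to 4. Restricted replicate 4 thus lay apart from the other restricted larvae, and low and high larvae occurred in every group. PmetTSAr1.1-000042 kept a ratio to the leader within 1.99-fold over all larvae, while the ratio for PmetTSAr1.1-000847 ranged over 212-fold.

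The set of PmetTSAr1.1-014869 (11 members) ran the other way. PmetTSAr1.1-014869 took 0.824%, 0.316%, 1.62% and 0.617% in worker-reared replicates 1 to 4, and 0.0783%, 0.333%, 0.838% and 0.358% in foundress-reared replicates 1 to 4. It took 0.165%, 0.117%, 0.143% and 1.14% in restricted replicates 1 to 4, and 0.676%, 0.783%, 0.137% and 0.719% in ad libitum replicates 1 to 4. It was first in worker-reared replicate 3 and restricted replicate 4, the larvae in which PmetTSAr1.1-000041 was lowest. Of the 308 pairs between both sets, 199 had r below -0.7 and none was positive, with a range from -0.96 to -0.34. The lowest r of all pairs was -0.96, between PmetTSAr1.1-014883 and PmetTSAr1.1-000046 (Spearman's rho -0.97), and it was -0.94 without the 2 larvae farthest from the median. The same pairing of PmetTSAr1.1-000046 with PmetTSAr1.1-014869 gave -0.96 (rho -0.96), PmetTSAr1.1-000065 with PmetTSAr1.1-014883 -0.94 (rho -0.94), and PmetTSAr1.1-000207 with PmetTSAr1.1-000135 -0.94 (rho -0.94). Without the 2 farthest larvae they were -0.93, -0.92 and -0.89. Permutation p-values, from 100000 permutations within groups, ran from 1e-05, the smallest these can give, to 0.00014. The pairs were picked as the extremes of 4950, which these p-values do not take into account.

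**Figure D4:**
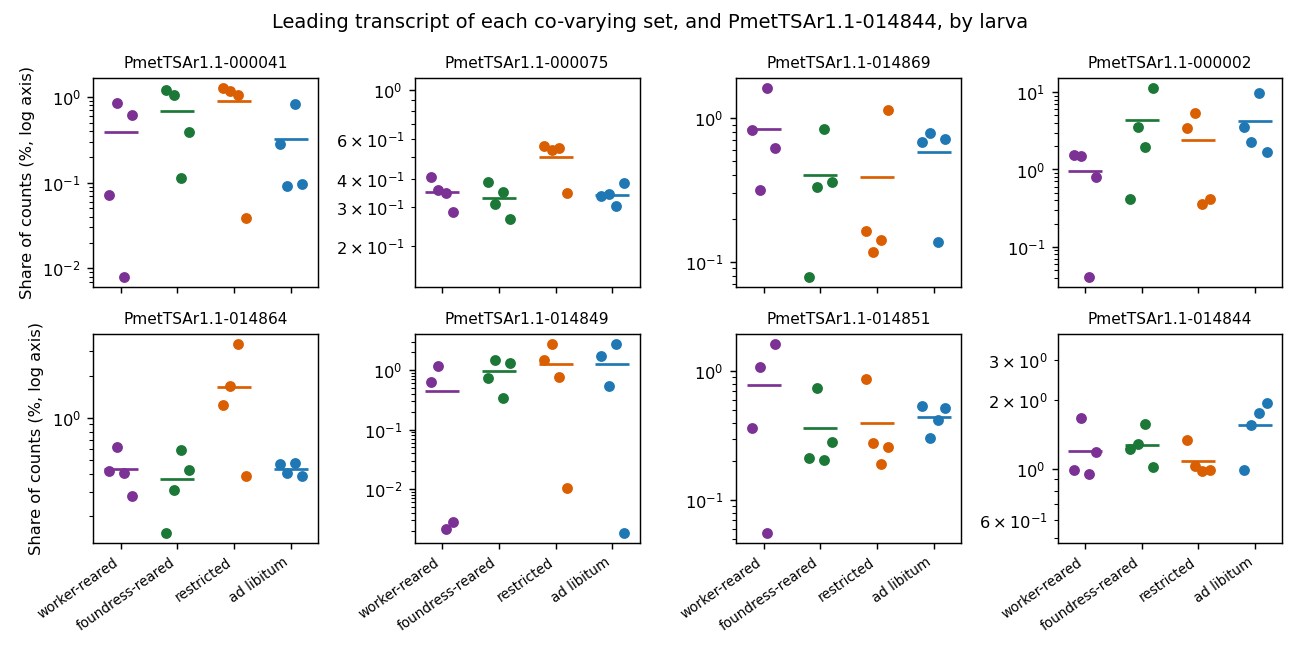
Share of library counts (percent, log axis) of the leading transcript of each of the 7 sets, in each larva by group. PmetTSAr1.1-014844, steady in share, is also shown. Points are larvae and lines are group means (n = 4). PmetTSAr1.1-014849 lies at 0.0103% or below in 4 larvae of 3 groups, and PmetTSAr1.1-014864 lies above 1% in restricted replicates 1 to 3.

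The set of PmetTSAr1.1-014849 (6 members, with PmetTSAr1.1-000003, PmetTSAr1.1-000044, PmetTSAr1.1-014646, PmetTSAr1.1-014848 and PmetTSAr1.1-014866) was low in the same 4 larvae. Each of the 6 was lower in these larvae than in the other 12, and PmetTSAr1.1-000003, the highest there, held 0.0148% to 0.0254% against at least 0.383%. PmetTSAr1.1-014849 took 0.627%, 1.16%, 0.00213% and 0.00281% in worker-reared replicates 1 to 4 and 0.721%, 1.45%, 0.345% and 1.33% in foundress-reared replicates 1 to 4. It took 1.45%, 2.75%, 0.774% and 0.0103% in restricted replicates 1 to 4 and 1.71%, 0.534%, 2.75% and 0.00182% in ad libitum replicates 1 to 4. The low larvae were worker-reared replicates 3 and 4, restricted replicate 4 and ad libitum replicate 4, with no larva between 0.0103% and 0.345%. The summed share of the set was at most 0.0400% in these 4 larvae and from 1.01% to 8.10% in the other 12. Because the larvae fall apart in this way, r over all 16 reflects that split, and within the 12 larvae the median r among the 6 members was 0.81 (0.54 to 1.00). Within those 12, PmetTSAr1.1-014866 and PmetTSAr1.1-014848 still had r of 1.00 (0.9967 before rounding), and PmetTSAr1.1-014646 and PmetTSAr1.1-014848 0.99.

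The set of PmetTSAr1.1-014864 (7 members) was high in 3 of the 4 restricted larvae. PmetTSAr1.1-014864 took 1.24%, 1.68%, 3.37% and 0.390% in restricted replicates 1 to 4, and 0.473%, 0.404%, 0.480% and 0.384% in ad libitum replicates 1 to 4. It took 0.422%, 0.621%, 0.407% and 0.281% in worker-reared replicates 1 to 4, and 0.152%, 0.309%, 0.594% and 0.427% in foundress-reared replicates 1 to 4. Restricted replicates 1 to 3 were above every other larva, and restricted replicate 4 lay within the range of the other groups. PmetTSAr1.1-014873 followed at a ratio of counts between 1.12 and 1.31 in every larva, and took 1.03%, 1.31%, 2.70% and 0.333% in restricted replicates 1 to 4.

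The set of PmetTSAr1.1-014851 (6 members) peaked in worker-reared replicate 4, with 4.81% of counts, and was lowest in worker-reared replicate 3, with 0.208%. PmetTSAr1.1-014851 took 0.366%, 1.08%, 0.0554% and 1.64% in worker-reared replicates 1 to 4, while foundress-reared larvae had 0.204% to 0.744%, restricted larvae 0.190% to 0.868% and ad libitum larvae 0.305% to 0.535%. The set of PmetTSAr1.1-000075 (13 members) had 1.19% to 2.14% of counts in 15 larvae and 6.54% in foundress-reared replicate 1. In that larva PmetTSAr1.1-014843 held 2.22% and PmetTSAr1.1-000063 1.60%, against at most 0.0146% and 0.00683% in each of the other 15 larvae. PmetTSAr1.1-000152, with 0.762% against at most 0.243%, and PmetTSAr1.1-000089, with 0.529% against at most 0.213%, were also highest there. The other 9 members of the set had their highest share in another larva. In CPM, on which the sets were cut, foundress-reared replicate 1 was highest for PmetTSAr1.1-000009, PmetTSAr1.1-000124, PmetTSAr1.1-012241, PmetTSAr1.1-000087, PmetTSAr1.1-000150 and PmetTSAr1.1-012223. It was not highest for PmetTSAr1.1-000073, PmetTSAr1.1-000075 or PmetTSAr1.1-000095. This larva had the lowest TMM factor, 0.649, which raises all its CPM alike.

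**Figure D5:**
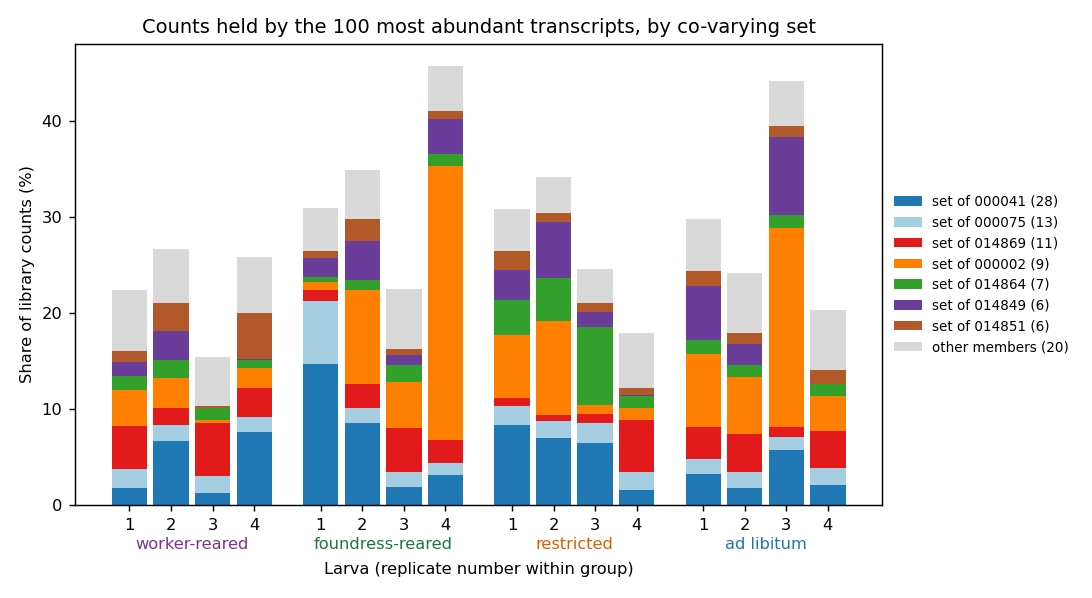
Percent of library counts held by the members in each of 16 larvae, stacked by set, with the number of members of each set in brackets and the 20 members outside these sets in grey. The set of PmetTSAr1.1-000002 reaches 28.5% in foundress-reared replicate 4 and 20.7% in ad libitum replicate 3, and the set of PmetTSAr1.1-000041 reaches 14.7% in foundress-reared replicate 1.

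Some members shared more than a direction. The counts of PmetTSAr1.1-000033 and PmetTSAr1.1-000034 were proportional within sampling noise over all 16 larvae (chi-square per degree of freedom 0.853), with a ratio between 0.941 and 1.05 and a median of 1.00. They ran from 0.00101% and 0.00103% in worker-reared replicate 3 to 1.14% in foundress-reared replicate 1. PmetTSAr1.1-000009 and PmetTSAr1.1-012223 came next, with a ratio between 1.84 and 1.92 (chi-square per degree of freedom 3.43), and every other pair of members had a value of 71.1 or above. Whether such pairs are isoforms, near-identical copies or pieces of one transcript was not tested, and how the deposited counts divide fragments that fit several transcripts is not given in the sources used here.

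The identifiers of the members fell into 3 bands of numbers, 70 between 1 and 1142, 7 between 12223 and 12285 and 23 between 14646 and 14965. Over all 74517 transcripts, identifier number and mean share had a Spearman correlation of -0.87, which is across transcripts and not across larvae. The bands held 19.9%, 0.841% and 7.43% of counts on average. The median standard deviation within groups was 0.84 in the first, 0.36 in the second and 1.60 in the third band. Of 36 pairs of members with consecutive numbers, 4 had r above 0.9 and 13 had a negative r, with a median of 0.46.

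The caste contrast asked how queen-destined, worker-reared larvae differ from worker-destined, foundress-reared larvae. No member was called at an adjusted p under 0.05 with edgeR's quasi-likelihood test, against 16 of 36337 transcripts tested (0.044%), of which 0.0248% were higher and 0.0193% lower in worker-reared larvae. An unadjusted p under 0.05 was reached by 11 members (11%), against 16.1% of all transcripts, limma voom called 0 members, against 0.011% of all transcripts, and DESeq2 called 3, against 2.69%. The fitted log2 fold change was below 0 for 80 of the 100 members, with a median of -0.48, against a median of 0.00 and 50.1% above 0 over all transcripts. With library totals the median of all transcripts moved to 0.44, 82.2% of them were above 0, and 51 members were above 0. The sign for single members thus depended on the scaling. A change of scaling shifts all transcripts of a larva alike, so it cannot test the lower position of the members relative to the others. Members that move together are not independent, and this position was not tested.

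The smallest caste p-values among members belonged to transcripts that entered the list through 1 larva, so their values are given without a test. PmetTSAr1.1-000063 measured 9.06, 6.28, 1.59 and 7.82 CPM in worker-reared replicates 1 to 4 and 24680, 81.2, 4.80 and 12.6 CPM in foundress-reared replicates 1 to 4 (fitted log2 fold change -9.97). The groups overlapped, and without foundress-reared replicate 1 the log2 fold change was -2.41. PmetTSAr1.1-014843 measured 6.72 to 54.7 CPM in worker-reared larvae and 34130, 174, 4.95 and 17.7 CPM in foundress-reared replicates 1 to 4 (fitted log2 fold change -8.29, and -1.26 without that larva). The 2 groups were apart in CPM for 1 member, lower in worker-reared larvae, against 9.41% of all transcripts in either direction and 4.4% in this one. It was PmetTSAr1.1-000216, named after its values were seen, with 886 to 1297 CPM in worker-reared and 1299 to 2054 CPM in foundress-reared larvae (log2 fold change -0.57, SE 0.306, adjusted p = 0.377 with edgeR).

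The nutrition contrast asked how larvae on ad libitum protein differ from restricted larvae. No member and no other transcript was called with edgeR (0%). An unadjusted p under 0.05 was reached by 15 members, against 13.6% of all transcripts, limma voom called 0 members and 0 of all transcripts, and DESeq2 called 5 members, against 1.33%. The log2 fold change was above 0 for 49 of the 100 members, with a median of -0.12, against 49.9% and a median of 0.00 over all transcripts. PmetTSAr1.1-000072, of the set of PmetTSAr1.1-014864, measured 3440, 4788, 3663 and 1106 CPM in restricted replicates 1 to 4 and 1396, 1032, 1537 and 999 CPM in ad libitum replicates 1 to 4 (log2 fold change -1.39 with an SE of 0.364, and an adjusted p = 0.193 by edgeR). PmetTSAr1.1-000078, of the same set, measured 2754, 2843, 3562 and 1469 CPM in restricted and 1663, 1416, 1643 and 1454 CPM in ad libitum replicates 1 to 4 (log2 fold change -0.78 with an SE of 0.218, and an adjusted p = 0.203 by edgeR). In both, restricted replicates 1 to 3 lay above all ad libitum larvae and restricted replicate 4 among them.

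Restricted replicate 4 decided these counts. Without it, 18 members were called in the nutrition contrast with edgeR, against 8.12% of 37128 transcripts tested. All 7 members of the set of PmetTSAr1.1-014864 and 3 of 13 of the set of PmetTSAr1.1-000075 were lower with ad libitum food, and 8 of 11 of the set of PmetTSAr1.1-014869 were higher. The fitted log2 fold change of PmetTSAr1.1-014864 was -2.29 in that fit (edgeR adjusted p = 0.00647). Omission of any other library called 0 members in this contrast. The omission is thus singled out by its outcome, which its adjusted p-values do not take into account. The sets were cut from these same larvae and their members move together, so the called members of a set are not separate results. In the caste contrast 0 members were called without restricted replicate 4, against 0.07% of transcripts.

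CPM did not overlap between ad libitum and restricted larvae for 4 members, against 5.29% of all transcripts, and all 4 were higher in ad libitum larvae (2.61% of all transcripts were higher and 2.68% lower). They were PmetTSAr1.1-000059, PmetTSAr1.1-000038, PmetTSAr1.1-014850 and PmetTSAr1.1-000223, the middle 2 of these named after their values were seen. PmetTSAr1.1-000059 measured 2546, 3824, 293 and 1936 CPM in restricted replicates 1 to 4 and 12090, 10180, 23470 and 4809 CPM in ad libitum replicates 1 to 4. PmetTSAr1.1-014850 measured 72.8 to 1170 CPM in restricted and 1346 to 2263 CPM in ad libitum larvae. PmetTSAr1.1-000038 measured 197 to 1046 CPM in restricted and 1303 to 13200 CPM in ad libitum larvae.

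Field and laboratory larvae, which differ in year, place and origin together, were compared over the same fit. No member was called with edgeR, against 0.98% of all transcripts (0.292% higher and 0.688% lower in the field), and 24 members had an unadjusted p under 0.05, against 15.6%. Limma voom called 0 members, against 0.669% of all transcripts, and DESeq2 called 3, against 3.18%. PmetTSAr1.1-000223 measured 742 to 1136 CPM in worker-reared, 910 to 2206 CPM in foundress-reared, 534 to 731 CPM in restricted and 777 to 1069 CPM in ad libitum larvae (log2 fold change 0.67 with an SE of 0.168, and an adjusted p = 0.0774 by edgeR). PmetTSAr1.1-000035 measured 4975 to 6621 CPM, 6012 to 8713 CPM, 3942 to 5140 CPM and 4561 to 5726 CPM in the same order of groups (log2 fold change 0.46 with an SE of 0.126, and an adjusted p = 0.107 by edgeR). Groups held 70.9% of the variance of its log2 CPM, the most of any member, and its restricted larvae lay below all foundress-reared larvae. Field and laboratory larvae overlapped for both transcripts. Without restricted replicate 4, 15 members were called, against 6.13% of transcripts. This was the omission with the most calls, and it is given for that reason.

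A test for any difference among the 4 groups called 3 members with edgeR, against 1.78% of all transcripts tested, and 25 had an unadjusted p under 0.05, against 21.2%. Limma voom called 0 members, against 0.746%, and DESeq2 16, against 10.6%. Of the 3, PmetTSAr1.1-000063 and PmetTSAr1.1-014843 are in the list only through foundress-reared replicate 1, so their calls draw on the values that chose them and the count of 3 is no result about the members. An adjusted p of 0.05 or above was found for PmetTSAr1.1-000063 in 5 of 21 alternatives and for PmetTSAr1.1-014843 in 15 of 21, omission of foundress-reared replicate 1 among them for both. PmetTSAr1.1-000223 (edgeR adjusted p = 0.0368) averaged 1575 ± 555 CPM in foundress-reared and 894 ± 172 CPM in worker-reared larvae (SD, n = 4). With restricted food it averaged 634 ± 90.4 CPM and with ad libitum food 874 ± 136 CPM (SD, n = 4). Its call was lost with library totals and limma voom and in 12 of 16 omissions of a library, at adjusted p of 0.0527 to 0.177. The count of 3 was 0 without foundress-reared replicate 1 (1.36% of all transcripts), restricted replicate 2 (0.455%) or ad libitum replicate 1 (0.763%). It was 22 without restricted replicate 4, the most of any omission, against 12.5% of all transcripts in that fit.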

How the data were processed

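Heads of 16 larvae were sequenced, 1 library each. The authors deposited whole-number counts for 74517 assembled transcripts. Per the submitters' processing notes, Bowtie2 and eXpress were used (versions not given). The assembly, strand handling and treatment of shared fragments were not stated in these sources. RNA was extracted with RNeasy columns and libraries were made with a TruSeq kit, per the labels' protocols.

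Shares are counts over library totals (28359372 to 37626473). At 95%, Wilson intervals had a half-width of 0.951% of the value at the median and at most 3.57% for shares of at least 0.01%. Over all 1600 member values the half-width reached 47.4%, and 46 values had more than 10%. These intervals cover counting error. No interval uses molecular identifiers. Tests used edgeR 4.0.16 in R 4.3.3, with TMM, filterByExpr, robust quasi-likelihood and one mean per group over 16 libraries. Benjamini-Hochberg adjustment ran over 36337 transcripts holding 99.74% of counts. Alternatives were limma 3.58.1 and DESeq2 1.42.0. Only edgeR's caste contrast was tried on simulated counts with known changes, and the outcome is not reported here. SE is the absolute log2 fold change over the square root of F. Correlations used log2 CPM with a prior count of 2 (Python 3.11.15, SciPy 1.17.1). Chi-square per degree of freedom was 48 or above between larvae of one group, so none agreed within sampling noise. Replicate numbers follow the order of records and pair nothing.

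Named transcripts were the 10 with the highest mean share, the 4 with the highest and the 4 with the lowest spread, those called in a contrast (at most 6, or the 2 with the smallest p), the leaders of sets of at least 5, the 4 highest and 4 lowest r, and those beside the limit of the list. Others are examples of ranges and ratios chosen after their values were seen. The members and these rules were chosen with earlier results of these data known. Gene lists and cell type markers were not run, because the table holds no names.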

Additional observations from a re-analysis of the deposited data

Results flagged for a closer look

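Among 144 groups of 4 values examined (35 named members and the summed share, in each group), 14 had 1 larva well outside the remaining 3 by Dixon's test. About 7.2 (1 in 20) would be flagged by chance if members were picked without regard to their values. Many were named for extreme values in these same larvae, and members that move together are not independent. The 14 can therefore not be judged against 7.2. Restricted replicate 4 showed PmetTSAr1.1-000041 at 292 CPM against 10180 to 13650 in the other restricted larvae, PmetTSAr1.1-000046 at 142 CPM against 1392 to 2020, PmetTSAr1.1-000207 at 545 CPM against 2000 to 2367 and PmetTSAr1.1-014843 at 4.52 CPM against 69.9 to 88.9. The same larva showed PmetTSAr1.1-014869 at 8652 CPM against 1352 to 1774 and PmetTSAr1.1-014883 at 2049 CPM against 336 to 404.

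Ad libitum replicate 3 showed PmetTSAr1.1-014869 at 1923 CPM against 5600 to 6618 in its group, PmetTSAr1.1-000135 at 250 CPM against 1235 to 1648, PmetTSAr1.1-000046 at 1681 CPM against 305 to 385 and PmetTSAr1.1-000239 at 1090 CPM against 752 to 783. Ad libitum replicate 4 showed PmetTSAr1.1-014848 at 0.546 CPM against 1929 to 8253, PmetTSAr1.1-014646 at 1.27 CPM against 3639 to 12380 and PmetTSAr1.1-014866 at 0.910 CPM against 3056 to 13000. Foundress-reared replicate 1 showed PmetTSAr1.1-000181 at 1917 CPM against 1389 to 1432.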

How the results depend on the processing

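The counts of members called depended on the tool and on 1 larva. DESeq2 called 3 members for caste (2.69% of all transcripts), 5 for nutrition (1.33%), 3 between field and laboratory (3.18%) and 16 among the 4 groups (10.6%), where edgeR called 0, 0, 0 and 3. It gave 2 members no adjusted p. Without the filter 1 member was called between field and laboratory (0.382% of all transcripts) and 1 among the groups (0.682%). Among the groups, limma voom called 0 (0.746% of all transcripts), and members chosen by the median share gave 1 (1.78%). Omission of single libraries gave 0 in each case for caste (0.00266% to 0.123% of all transcripts). It gave 0 to 18 for nutrition, 0 to 15 between field and laboratory and 0 to 22 among the groups. These 3 were highest without restricted replicate 4 (8.12%, 6.13% and 12.5% of all transcripts). The number of members in the 100 most abundant of every library, 19, was 31 with lists of 150. The median standard deviation was 0.75 for members by the median share (87 shared), and 0.83 to 0.95 with a library left out. The median r was 0.053 with library totals and 0.27 to 0.41 with a library left out. The number of sets of at least 5 was 6 to 9 with a library left out. The list kept 95 to 100 members when a library was left out of the rule, and 84 members stayed under every omission. Group means of the summed share moved by less than 1 SD in each alternative. The log2 fold changes of PmetTSAr1.1-000072 and PmetTSAr1.1-000078 for nutrition and PmetTSAr1.1-000223 and PmetTSAr1.1-000035 between field and laboratory kept their sign in the alternatives run. For caste, PmetTSAr1.1-000063 and PmetTSAr1.1-014843 kept their sign in the alternatives that gave them an adjusted p. DESeq2 gave these 2 none, and their sign there was not followed. Signs of other transcripts were not followed. The causes were not tested. No paired analysis was possible because the replicate numbers only name larvae.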
